A study of Mus musculus with 24 samples.

Results

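Fibronectin, periostin and 8 further proteins of the extracellular matrix were followed through adipocyte differentiation of 3T3-L1 cells, in total reads and in reads labelled with 4-thiouridine. The genes are Fn1, Postn, Thbs1, Thbs2, Tnc, Sparc, Fbln5, Fbln2, Fbn1 and Eln, which is 10 of the 26995 gene symbols in the tables. They were chosen by symbol, each represented by the 3′UTR entry that held the most reads on average over the 24 libraries. The list was drawn up with results of these data known: Fn1 and Postn stand in it for their higher labelled reads with ML-792 at day 3. The difference between ML-792 and DMSO at day 3 is therefore a description with no test for all 10 genes, in total reads as in labelled reads.

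3T3-L1 is a single established line of mouse embryonic fibroblasts that can be turned into adipocytes. In both treatments differentiation was induced with dexamethasone, 3-isobutyl-1-methylxanthine and insulin, and the cells were moved to a maintenance medium with insulin at day 3. Cells of day −2 were harvested before any of these was added, and cells of day 1 before the change of medium. A difference from day −2 is therefore one of medium as well as of day. They were grown with the solvent DMSO or with 0.5 µM ML-792, an inhibitor of the enzyme that activates SUMO for conjugation to proteins. Cells were collected before induction, at day −2, and at days 1, 3 and 7. Every culture, the DMSO controls included, received 100 µM 4-thiouridine for 45 min before harvest. This uridine analogue enters new RNA and is read as a T to C conversion, and a read with such a conversion is called a labelled read. Sequencing errors and sequence variants can give such reads too, and no library without 4-thiouridine was at hand to measure that background. The 4 days and 2 treatments make 8 conditions with 3 biological replicates each, named A, B and C. How long ML-792 had been present at the day −2 harvest is not given in the sources used here.

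Fibronectin is a matrix glycoprotein that cells bind through integrins and assemble into fibrils, on which other matrix proteins are then laid down. Matricellular proteins such as periostin, the thrombospondins, tenascin C and SPARC lie in the matrix and act mainly on cells and growth factors, and less as structural parts. Elastin, fibrillin 1 and the fibulins build and organise elastic fibres and microfibrils. Pre-adipocytes carry a fibronectin-rich matrix, and adipocytes replace it with one rich in basement membrane proteins.

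The libraries held 13554718 to 27013352 total reads and 115709 to 820046 labelled reads over all entries. A gene can have several entries, and with 1 entry per gene the total reads were 9118951 to 18306796. The labelled share of a library averaged 3.17% ± 0.485 (SD, n = 3) at day −2 and 1.03% ± 0.087 (SD, n = 3) at day 7 in DMSO. With ML-792 it averaged 2.83% ± 0.206 and 0.837% ± 0.031 (SD, n = 3) at the same days. Pre-adipocyte and adipocyte markers matched the label of the cells. In DMSO the summed normalized counts of 6 pre-adipocyte markers averaged 66420 at day −2 and 4554 at day 7, and those of 9 adipocyte markers 22950 and 696700. The 5 smooth muscle and myofibroblast markers summed to a mean of 50210 before induction in DMSO. By day 1 this mean was 2201, then 483.2 (day 3) and 1393 (day 7). Acta2 held 391311 reads over all libraries, the most of the 5. Of the 4 tested, 2 were lower on day 1 and none higher, and day 7 had 2 of each (adjusted p under 0.01, edgeR). Whether the drop in these markers bears on the 10 genes was not tested. Of 5 endothelial markers 1 passed the filter on low counts, and their sum never exceeded 20.6 normalized counts. Of 5 macrophage markers 3 passed it, and the sum of the 5 ran from 95.27 to 438.9 normalized counts over the libraries. Ptprc had no read in any of the 8 conditions, while Cd14, Cd68 and Csf1r had 3226, 1200 and 384 reads over all libraries. These are bulk samples, in which fewer cells of a type and less RNA per cell cannot be told apart.

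All 10 genes fell during differentiation in DMSO, and the thrombospondins passed the test first. In total reads 2 of 10 genes, Thbs1 and Thbs2, were lower at day 1 than at day −2 (edgeR quasi-likelihood test, Benjamini-Hochberg adjusted p under 0.01), where 9.36% of all 13331 genes tested were called lower. At day 3 all of the 8 genes other than Fn1 and Postn were lower, beside a background of 18.5%, and at day 7 it was 10 of 10 beside 19.1%. The 10 genes had a median log2 fold change of −0.76 at day 1 and of −4.21 at day 7, while the median of all genes was 0.04 and 0.0033. The count of day 1 was 6 by DESeq2 and 6 without replicate B. At day 7 the 3 libraries of each gene all lay below its 3 libraries of day −2. At day 3 this held for the 8 genes other than Fn1 and Postn. The share of all genes that separate in this way is not given here, so both are descriptions. The day 3 libraries, of both treatments, are also those that the choice of Fn1 and Postn used, and those of the other days are not. Both genes are therefore left out of the counts of calls given for day 3, and their levels of that day are given with no test. Only the summary of all calls under the alternatives, in the closing section, still holds calls of that day with Fn1 and Postn among them.

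**Figure D1:**
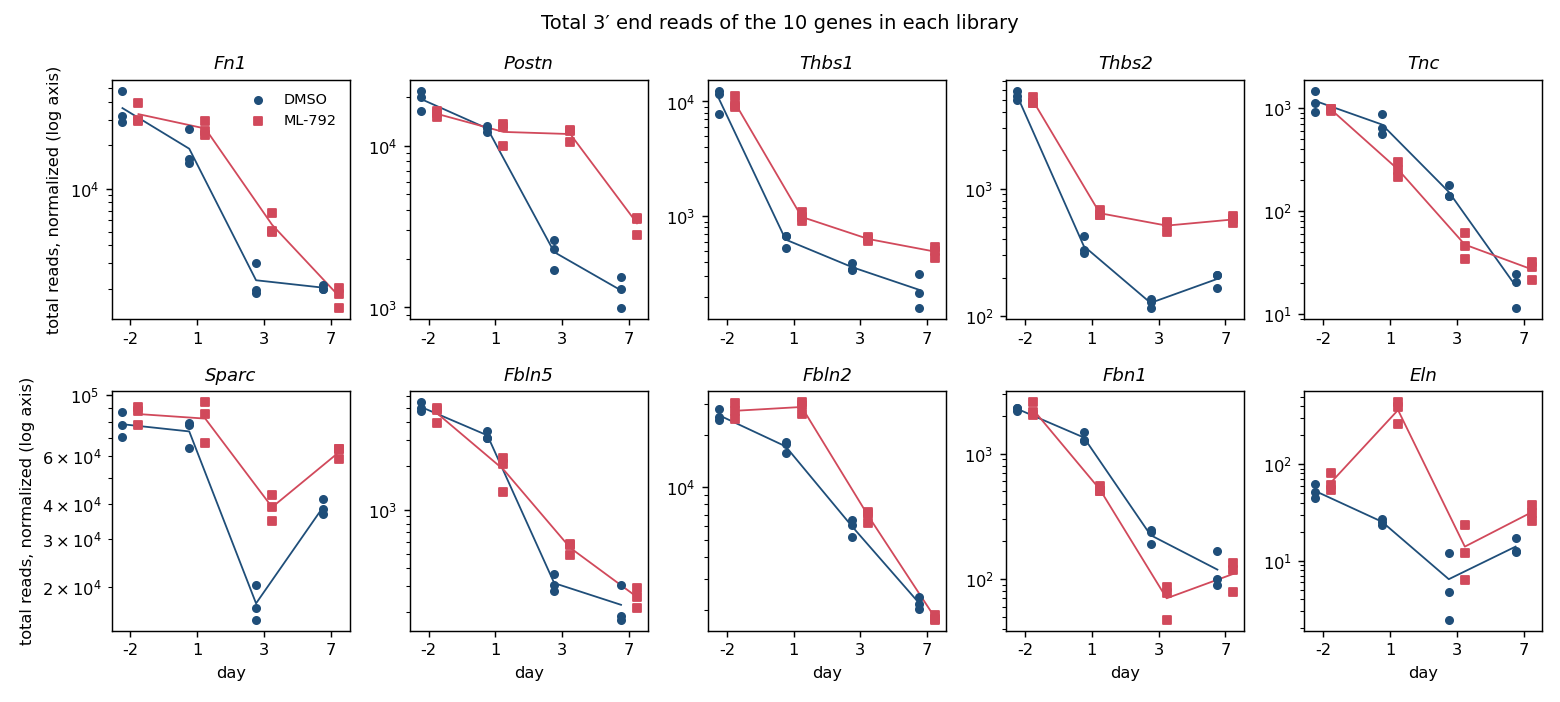
Normalized total read counts of the 10 genes (log axis) in each of the 24 libraries, by day, with the mean of the 3 replicates as a line, for DMSO and ML-792. In each gene the DMSO libraries of day 7 lie below those of day −2, a separation that was not set beside all genes. Eln peaks at day 1 with ML-792 only, at 261 to 437.

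Fibronectin mRNA was lower at day 7 than before induction. The Fn1 entry is the 3′UTR stretch of 739 bases at chr1:71585473-71586211 on the minus strand (mm10). Its normalized total counts in DMSO replicates A, B and C were 29092, 48282 and 31961 at day −2 and 14969, 25857 and 16053 at day 1. They were 1872, 3035 and 1951 at day 3 and 1983, 1996 and 2112 at day 7. Replicate B was the highest at the first 3 days, and no library of day 1 reached those of day −2. The difference at day 1 was −0.94 ± 0.254 (log2, SE) with an adjusted p of 0.0137 in edgeR's quasi-likelihood test, which misses the threshold. At day 7 Fn1 was lower by −4.17 ± 0.287 (adjusted p = 1.34e-08, edgeR).

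Periostin, a ligand of integrins that also binds collagen and fibronectin, took a similar course. The Postn entry covers 742 bases at chr3:54390300-54391041 on the plus strand (mm10). Its DMSO libraries held 20058, 21864 and 16419 normalized counts at day −2 and 12827, 13197 and 12206 at day 1. They held 2282, 2605 and 1707 at day 3 and 1534, 989 and 1302 at day 7. The libraries of days −2, 1 and 7 did not overlap with one another. Postn was lower by −3.93 ± 0.225 (log2, SE) at day 7 (adjusted p = 2.09e-09, edgeR), and the −0.61 ± 0.200 of day 1 had an adjusted p of 0.0385.

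The thrombospondins, secreted matricellular proteins that bind CD36, CD47 and integrins, lost most of their RNA by day 1. Thbs1 counts in DMSO were 12431, 7813 and 11590 at day −2 and 678, 528 and 676 at day 1. They were 393, 339 and 349 at day 3 and 214, 158 and 315 at day 7. The days −2 and 1 are far apart, and each later day lies below the one before it. Thbs1 was lower by −4.08 ± 0.263 (log2, SE; adjusted p = 4.94e-08, edgeR) at day 1 and by −5.54 ± 0.283 at day 7. Thbs2 had 5402, 5902 and 4938 counts at day −2, 310, 423 and 328 at day 1, 115, 128 and 136 at day 3, and 210, 167 and 209 at day 7. Its lowest values were at day 3, below every library of day 7. It changed by −3.94 ± 0.191 at day 1 (adjusted p = 4.8e-09, edgeR) and by −4.79 ± 0.200 at day 7.

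The 3′ sequences of the thrombospondins are shown because these are the entries in which their reads were counted, and because both hold several copies of an AU-rich motif, TATTTAT on the transcript strand. Such motifs are known from short-lived mRNAs. They were looked for after the values had been seen, and a match is a description of the sequence, not of a site in use. TATTTAT occurs 3 times in the Thbs1 entry of 2104 bases, which holds 679 T, and 5 times in the Thbs2 entry of 2013 bases, which holds 671 T. Of the 2047 tested entries of like length to that of Thbs1 (the shorter at least 0.8 times the longer), 3.96% hold 3 or more, and of the 2119 of like length to Thbs2, 0.661% hold 5 or more. The Fn1 entry holds it once (18.6% of entries of like length hold at least 1), and the other 7 entries do not hold it, nor do most genes: 27.7% of the 13331 tested entries do. The shorter ATTTA, which lies within it, occurs 6 times in Thbs1, 10 times in Thbs2, 7 times in Fbln5 and not at all in Fbln2 and Tnc. TGTANATA, searched on the same strand, occurs 3 times in Thbs1 (2.2% of entries of like length hold as many), 2 times in Thbs2 (9.49%) and in none of the other 8 entries. In the sequences, read 5′ to 3′ on the transcript strand of mm10, capitals mark TATTTAT. The last 2 of Thbs2 overlap.
Thbs1, chr2:118126031-118126059, plus strand: acaatgtaataTATTTATtttgttcccct
Thbs1, chr2:118126155-118126183, plus strand: taaatacagatTATTTATtaaccctgttc
Thbs1, chr2:118127115-118127133, plus strand: atggaagtttaTATTTATa
Thbs2, chr17:14667165-14667193, minus strand: attacttgcagTATTTATgtgtatatgga
Thbs2, chr17:14666463-14666491, minus strand: tcttttgttaaTATTTATtaaatgatttg
Thbs2, chr17:14665682-14665710, minus strand: tttttgtaaatTATTTATgtagttttttt
Thbs2, chr17:14665597-14665625, minus strand: aagattgtaaaTATTTATttatttgttca
Thbs2, chr17:14665593-14665621, minus strand: ttgtaaatattTATTTATttgttcattgg
Fn1, chr1:71585680-71585708, minus strand: tacctgtttgtTATTTATcaatttttccc

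Tenascin C had the most negative log2 fold change of the 10 genes at day 7, and SPARC the least negative. Tenascin C is a matricellular protein of remodelling tissue that modulates adhesion to fibronectin. Tnc counts in DMSO were 922, 1471 and 1115 at day −2, 638, 873 and 560 at day 1, 180, 140 and 141 at day 3, and 24.7, 11.4 and 20.5 at day 7. Each day lay below the one before it in all libraries, and at day 7 Tnc was lower by −5.95 ± 0.317 (log2, SE; adjusted p = 1.01e-09, edgeR). SPARC, a collagen-binding matricellular protein, had 77545, 70592 and 86669 counts at day −2 and 64251, 78854 and 77966 at day 1, which overlap (−0.09 ± 0.171, adjusted p = 0.771, edgeR). It had 15180, 16775 and 20349 at day 3 and 36890, 41701 and 38345 at day 7. The libraries of day 7 lay between those of day 3 and those of day −2. Sparc was lower by −2.17 ± 0.179 at day 3 and by −1.01 ± 0.173 at day 7 (adjusted p = 0.000193, edgeR), and the call at day 7 was lost without replicate A (adjusted p = 0.0193) or C (adjusted p = 0.0123).

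The genes of elastic fibres fell with the others. Fibulin 5 and fibulin 2 bind elastin and fibrillin in growing fibres, and fibrillin 1 is the main protein of microfibrils. Fbln5 in DMSO had 5014, 4764 and 5455 normalized counts at day −2 and 188, 176 and 306 at day 7. Fbln2 had 25012, 24306 and 28037 at day −2 and 2023, 2179 and 2362 at day 7. Fbn1 had 2312, 2334 and 2203 at day −2 and 88.8, 168 and 100.1 at day 7. These ranges are far apart, and the differences at day 7 were −4.51 ± 0.230, −3.56 ± 0.174 and −4.26 ± 0.237 (log2, SE; adjusted p between 4.25e-10 and 1.63e-09, edgeR). Eln, which encodes elastin, was low throughout in DMSO, with 44.9, 61.7 and 51.4 counts at day −2, 25.3, 27.0 and 23.6 at day 1, 12.1, 4.70 and 2.43 at day 3, and 12.4, 12.5 and 17.1 at day 7. Its difference at day 7 was −1.91 ± 0.476 (adjusted p = 0.00407, edgeR) and missed the threshold when any of the replicates A, B or C was left out (adjusted p of 0.0392, 0.0320 and 0.0210).

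Labelled reads of the 9 genes that could be tested were lower at day 7 as well. They were scaled by the total reads of their libraries, and on that scale the median of all 6434 genes tested was itself lower, by −1.16, −1.58 and −1.45 at days 1, 3 and 7. Eln had too few labelled reads to be tested, with at most 5 in a library. Of the other 9 genes, 3 were lower at day 1 (Fn1, Thbs1 and Thbs2; background 17.9%) and 9 at day 7 (27.4%). At day 3 it was 7 of the 7 other than Fn1 and Postn (30.6%). Scaled by the labelled reads instead, where the medians of all genes were −0.16, −0.39 and −0.32, it was 3 at day 1, 5 of those 7 at day 3 and 8 at day 7. The scaling also sets the balance over all genes: 38 of 1187 calls were higher at day 1, 131 of 2100 at day 3 and 129 of 1890 at day 7, against 129 of 371, 351 of 821 and 329 of 791 with the labelled reads as the scale.

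The thrombospondins and Fn1 had lost labelled reads by day 1. Labelled counts of Thbs1 in DMSO were 3680, 2139 and 3376 at day −2 and 53.4, 48.5 and 73.2 at day 1, a difference of −5.71 ± 0.366 (log2, SE; adjusted p = 6.62e-18, edgeR) on the scale of the total reads. They were 45.2, 18.8 and 49.8 at day 3 and 34.8, 34.3 and 46.6 at day 7. Days 1 and 3 overlapped by a single library, and day 7 lay within the range of day 3. Fn1 had 587, 759 and 514 at day −2, 69.3, 81.8 and 74.1 at day 1, 8.82, 22.3 and 8.51 at day 3 and 14.6, 11.4 and 17.1 at day 7. At day 1 it was lower by −3.04 ± 0.369 (adjusted p = 4.51e-09, edgeR), while its total reads that day did not pass the test.

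Labelled reads of Postn and Sparc did not pass the test at day 1 and passed it at day 7. Postn had 260, 259 and 222 labelled counts at day −2 and 174, 78.2 and 100 at day 1 (−1.07 ± 0.381, adjusted p = 0.0266, edgeR), then 27.6, 18.8 and 15.8 at day 3 and 27.0, 10.4 and 28.4 at day 7. Sparc had 1459, 1166 and 1758 at day −2, 669, 856 and 1031 at day 1, 157, 180 and 334 at day 3 and 432, 317 and 449 at day 7. Its −0.78 ± 0.296 of day 1 did not pass the test (adjusted p = 0.0382, edgeR) and became 0.21 ± 0.268 when labelled reads were scaled by labelled reads. At day 7 Sparc was lower by −1.87 ± 0.305 (adjusted p = 2.2e-06, edgeR), which shrank to −0.75 with an adjusted p of 0.0420 on the scale of the labelled reads.

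For several other genes the labelled reads at day 7 were near the limit of detection, taken as 3 reads in a library. Fbln5 had 206 labelled reads over the 3 DMSO libraries of day −2 and none at day 7, at least 17.5-fold lower against 3 reads per library. Tnc had 74 and none, at least 6.32-fold lower. Thbs2 had 364 and 3, a ratio of 0.0107 (95% Poisson interval 0.00219 to 0.0314), and Fbn1 had 141 and 5, a ratio of 0.0459 (0.0147 to 0.110). Fbln2 went from 158, 143 and 161 labelled reads to 14, 4 and 9. The intervals cover counting error only. The bounds set the group without reads at 3 reads per library and take in no error. The call of Tnc at day 3, with 1 labelled read in all, was lost without replicate A (adjusted p = 0.0271, edgeR).

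**Figure D2:**
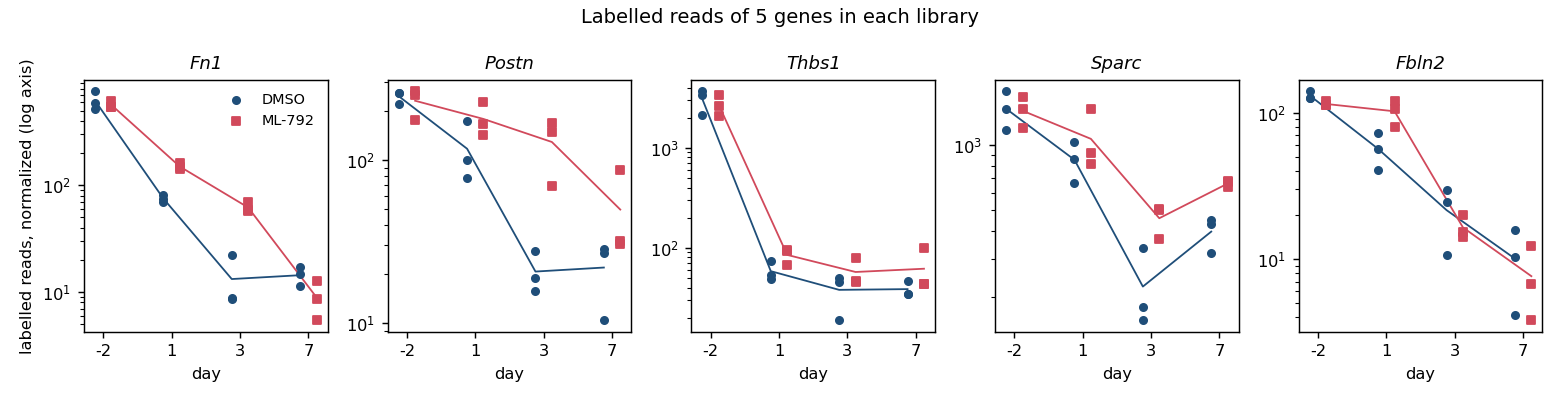
Normalized labelled read counts (log axis, scaled by the total reads) of Fn1, Postn, Thbs1, Sparc and Fbln2 in each library by day, for DMSO and ML-792, with lines through the means of 3 replicates. Thbs1 drops from 2139 to 3680 at day −2 to 48.5 to 73.2 at day 1 in DMSO, and the Fn1 libraries of the 2 treatments stand apart at day 1.

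The labelled share of a gene, its labelled reads as a percentage of all its reads, depends on how fast RNA is made relative to the amount already present, and on the number of T bases in the sequenced stretch. It set Thbs1 apart from the others at day −2. The shares of Thbs1 in DMSO were 29.6%, 27.4% and 29.1% at day −2, where the median gene had 2.97% and Thbs1 ranked 25th of 6434 from the top (28.9% over pooled reads). The other 8 tested genes lay below the median gene, from 0.508% in Fbln2, with 1.94% of all genes lower, to 1.90% in Thbs2. Fbln2 varied little between replicates, with 0.506%, 0.518% and 0.500%.

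With differentiation most genes lost labelled share, by a median of −1.25, −1.60 and −1.41 (log2) at days 1, 3 and 7, and so did whole libraries. Of the 9 genes, 2 had a lower share at day 1 (Fn1 and Thbs1; background 13.5%) and 2 at day 7 (Fn1 and Sparc; 19.4%) by edgeR's quasi-likelihood test of labelled against unlabelled reads. At day 3, with Fn1 and Postn left out, it was 1 of 7 (Thbs1; 26.4%). Fn1 had shares of 2.02%, 1.57% and 1.61% at day −2 and of 0.463%, 0.316% and 0.462% at day 1, which do not overlap (−2.10 ± 0.250, log2, SE; adjusted p = 4.88e-07). Its shares at day 7 were 0.737%, 0.574% and 0.808%. Thbs1 had 7.87%, 9.20% and 10.8% at day 1, 11.5%, 5.56% and 14.3% at day 3 and 16.3%, 21.7% and 14.8% at day 7. At day 7 all its libraries were above those of day 1 and below those of day −2, and −0.94 ± 0.380 against day −2 did not pass the test (adjusted p = 0.0486) and turned to 0.20 ± 0.240 when labelled and unlabelled reads were each scaled by their own totals.

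That scaling takes off the shift over all genes. It left 1 gene called at day 1 and 1 at day 7, and at day 3 none of those other than Fn1 and Postn. Fn1 stayed lower at day 1, Thbs1 at day 1 was −0.96 with an adjusted p of 0.0135 (edgeR), and Postn at day 7 was higher by 1.54. The Sparc call of day 7, −0.87 ± 0.219 (adjusted p = 0.00329, edgeR), turned to 0.27 ± 0.171 under it. The Thbs1 call of day 3 was lost without replicate A. At day 7 the calls of Fn1 (adjusted p of 0.0332 and 0.0143, edgeR) and Sparc (0.0242 and 0.0304) were lost without A and without C. Thbs1 at day 1 was lost without A (adjusted p = 0.0396).

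**Figure D3:**
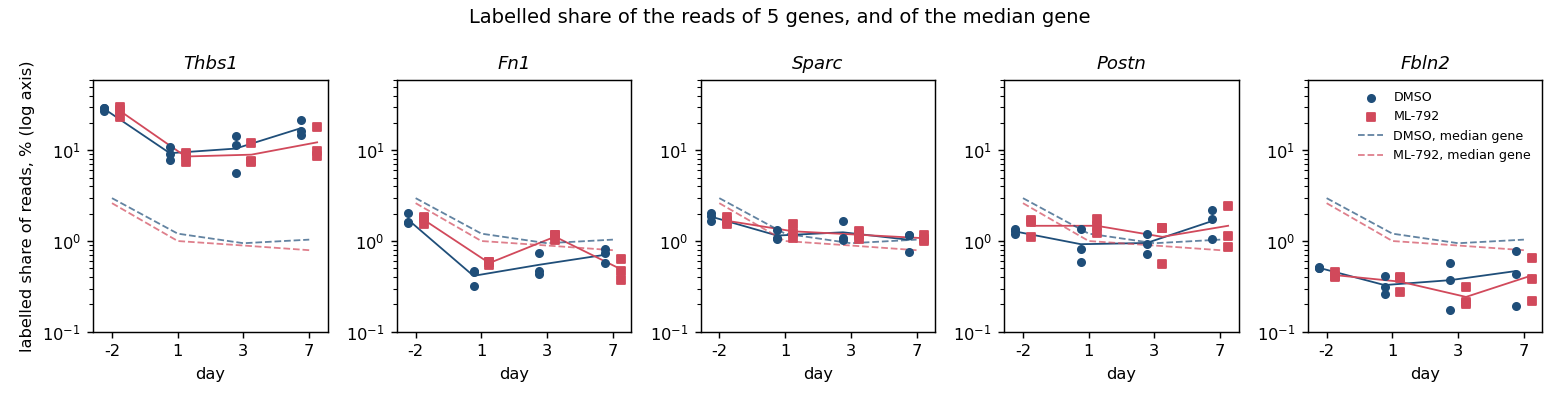
Labelled share in percent (log axis) of Thbs1, Fn1, Sparc, Postn and Fbln2 in each library by day, for DMSO and ML-792, with the median gene dashed. Thbs1 lies above the median gene at every day, at 27.4% to 29.6% at day −2 in DMSO, and Fbln2 at day −2 lies at 0.500% to 0.518%.

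In cells kept in ML-792 most of the genes were lower at day 7 than at day −2 too, while at day 1 Eln was higher and 4 genes, Fn1, Postn, Fbln2 and Sparc, did not pass the test. In total reads 5 of 10 genes were lower at day 1 than at day −2 (Fbln5, Fbn1, Thbs1, Thbs2 and Tnc; background 12.5%) and 1, Eln, was higher (11.9%). At day 3 all of the 8 genes other than Fn1 and Postn were lower (19.9%), and at day 7 it was 8 of 10 (19.4%), all but Eln and Sparc. In labelled reads 6 of 9 were lower at day 1 (24.3%), 7 of the 7 other than Fn1 and Postn at day 3 (31.6%) and 9 of 9 at day 7 (35.9%). Of these, 2, 6 and 6 passed when labelled reads were scaled by labelled reads, and Sparc at day 7, lower by −1.11, was then at 0.12. Without replicate A the calls of Eln (adjusted p = 0.01) and Fbln5 (adjusted p = 0.0222) in total reads at day 1 and of Eln at day 3 (adjusted p = 0.028) were lost. In labelled reads Tnc was lost without A, B or C at days 1 and 7, and Fbln5 without A or C at day 1.

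Before induction none of the genes passed the test between ML-792 and DMSO. At day −2 there was no call in total reads (0 of 10; 0% of all genes; 0 members at an unadjusted p under 0.05; none by DESeq2) or in labelled reads (0 of 9; 0%; 0 at an unadjusted p under 0.05; none by DESeq2). After induction the genes moved apart in both directions. In total reads at day 1, 4 of 10 genes were higher with ML-792 (Eln, Thbs2, Fbln2 and Thbs1; background 3.82%; adjusted p under 0.1) and 3 were lower (Tnc, Fbn1 and Fbln5; 4.05%). At day 7, 5 were higher (Thbs2, Postn, Eln, Thbs1 and Sparc; 6.32%) and none lower (5.43%; also none by DESeq2, and 1, Fbln2, at an unadjusted p under 0.05). The median difference of the 10 genes was 0.31 at day 1 and 0.60 at day 7, with medians of all genes of −0.01 and 0.01.

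Elastin RNA at day 1 was the largest of these differences. Eln had 25.3, 27.0 and 23.6 normalized counts in DMSO and 391, 261 and 437 with ML-792. The lowest ML-792 library was far above the highest DMSO library. The difference was 3.84 ± 0.381 (log2, SE; adjusted p = 3.55e-07, edgeR), and it held with each replicate left out. By day 3 Eln was back at 12, 6.34 and 23.6 counts with ML-792. At day 7 it had 25.8, 38.1 and 31.2 with ML-792 against 12.4, 12.5 and 17.1 in DMSO (1.18 ± 0.410, adjusted p = 0.0927, edgeR), a call lost without A, B or C. Labelled reads of Eln at day 1 were 4, 1 and 5 with ML-792 and 0 in all DMSO libraries, at least 1.28-fold higher against 3 reads per library.

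Tenascin C and fibrillin 1 went the other way at day 1. Tnc had 638, 873 and 560 counts in DMSO and 298, 248 and 215 with ML-792 (−1.45 ± 0.227, log2, SE; adjusted p = 0.000182, edgeR). Fbn1 had 1274, 1487 and 1280 in DMSO and 508, 548 and 502 with ML-792 (−1.38 ± 0.211, adjusted p = 0.000133, edgeR). In both genes all ML-792 libraries lay below all DMSO libraries. Fbln5 was lower too, at 2070, 1333 and 2262 against 3127, 3088 and 3486 (−0.78 ± 0.199, adjusted p = 0.0199, edgeR), which failed without replicate A (adjusted p = 0.283). At day 7 Tnc had 31.9, 21.6 and 28.5 counts with ML-792 and 24.7, 11.4 and 20.5 in DMSO, and Fbn1 and Fbln5 overlapped between the treatments as well.

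Fibulin 2 was higher with ML-792 at day 1 and the thrombospondins at both days. Fbln2 at day 1 had 26282, 29290 and 30533 counts with ML-792 against 15616, 17697 and 18052 (0.75 ± 0.134, log2, SE; adjusted p = 0.000835, edgeR). At day 7 it had 1878, 1758 and 1770 against 2023, 2179 and 2362, without overlap but not past the test. Thbs2 had 620, 678 and 626 against 310, 423 and 328 at day 1 (0.86 ± 0.143, adjusted p = 0.000372, edgeR) and 605, 540 and 573 against 210, 167 and 209 at day 7 (1.55 ± 0.148, adjusted p = 1.56e-07, edgeR). The ML-792 libraries of Thbs2 lay between 540 and 678 at both days. Thbs1 had 978, 904 and 1082 against 678, 528 and 676 at day 1 (0.66 ± 0.198, adjusted p = 0.0577, edgeR) and 436, 496 and 544 against 214, 158 and 315 at day 7 (1.10 ± 0.205, adjusted p = 0.000938, edgeR). Without replicate A, Thbs1 (adjusted p = 0.407) and Thbs2 (adjusted p = 0.103) missed the threshold at day 1, and Thbs1 also without C (adjusted p = 0.299).

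Periostin and SPARC were higher with ML-792 at day 7 and did not pass the test at day 1, and fibronectin passed it at neither day. Postn had 13017, 13540 and 9896 counts with ML-792 and 12827, 13197 and 12206 in DMSO at day 1 (−0.07 ± 0.178, adjusted p = 0.930, edgeR). At day 7 it had 2807, 3536 and 3584 with ML-792 and 1534, 989 and 1302 in DMSO (1.38 ± 0.182, adjusted p = 1.64e-05, edgeR). The ranges are apart by more than either of them spans. Sparc at day 7 had 63729, 58323 and 63630 against 36890, 41701 and 38345 (0.67 ± 0.154, adjusted p = 0.00714, edgeR), also apart, although the call was lost without A (adjusted p = 0.243) or C (adjusted p = 0.165). Fn1 had 25282, 29591 and 23832 with ML-792 and 14969, 25857 and 16053 in DMSO at day 1 (0.47 ± 0.229, adjusted p = 0.344, edgeR), where DMSO replicate B lies among the ML-792 libraries. At day 7 it had 1846, 2012 and 1457 against 1983, 1996 and 2112 (−0.20 ± 0.230, adjusted p = 0.744, edgeR).

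**Figure D4:**
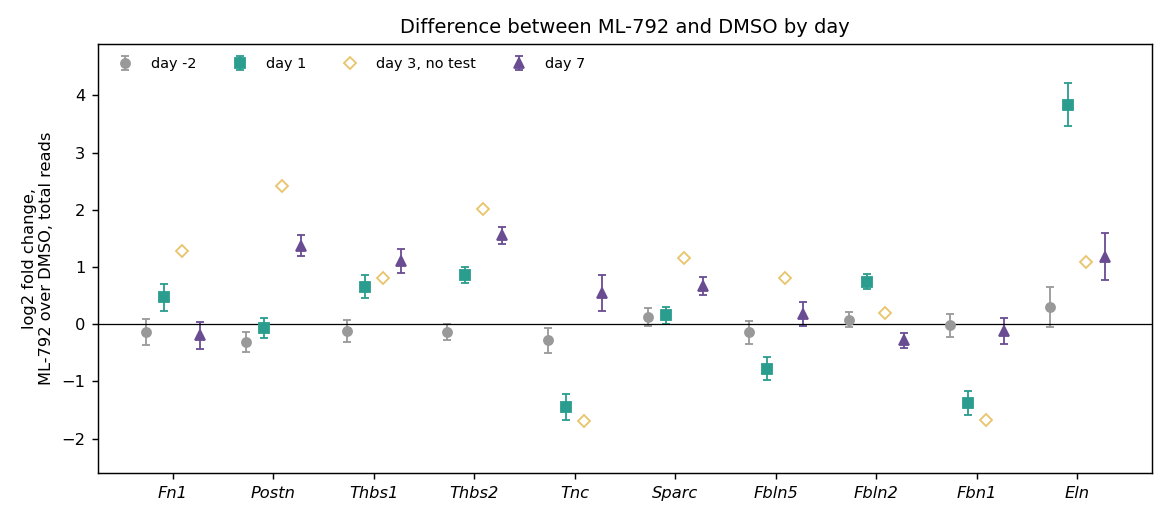
Difference between ML-792 and DMSO in total reads (log2 fold change, bars show the SE derived from the edgeR test) for the 10 genes at days −2, 1 and 7, with day 3 as open diamonds without a test or error. Eln stands at 3.84 at day 1, Tnc and Fbn1 at −1.45 and −1.38, and Postn and Thbs2 at 1.38 and 1.55 at day 7.

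Other markers moved with the treatment at the same days, and their part in these differences was not tested. At day 7 the summed adipocyte markers were at 879200 to 899100 with ML-792 and 649800 to 726200 in DMSO, with 3 of 9 markers higher, none lower and a median log2 difference of 0.33. The 6 pre-adipocyte markers summed to 3242 to 4228 and to 4363 to 4849, although 2 of them were higher, 1 was lower and the median was 0.67. Dlk1, the most abundant of them, averaged 1492 with ML-792 and 3098 in DMSO. At day 1 the adipocyte markers were at 35530 to 41770 with ML-792 and 42620 to 44710 in DMSO, although 2 of the 9 were higher, none lower and the median was 0.42. The pre-adipocyte markers overlapped (47810 to 61850 and 46030 to 61750), with 2 higher, 1 lower and a median of −0.10. The 5 macrophage markers summed to 252.9 to 438.9 at day 1 with ML-792 and to 161.6 to 194.2 in DMSO, with Ptprc at 0 in both and 1 of the 3 tested markers higher. The 5 smooth muscle and myofibroblast markers, 4 of which passed the filter, summed to 1021 to 2221 at day 1 with ML-792 and to 1831 to 2678 in DMSO, with no call and a median of 0.22. At day 7 they summed to 813.3 to 1070 and to 1263 to 1528, with 1 lower and a median of −0.52.

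The effect of ML-792 itself differed between days in several genes, by the interaction of treatment and day in total reads (edgeR, adjusted p under 0.1). Between days −2 and 1 it differed in 5 of 10 genes (Eln, Thbs2 and Fbln2 upward, Fbn1 and Tnc downward; background 2.32%). Between days −2 and 7 it differed in 3 (Thbs2, Postn and Thbs1, upward; 4.01%), and between days 1 and 7 in 7 (8.15%). The last were Tnc (1.99 ± 0.390), Postn (1.44 ± 0.254), Fbn1 (1.26 ± 0.310), Fbln5 (0.95 ± 0.287) and Thbs2 (0.69 ± 0.204), with a more positive difference at day 7, and Eln (−2.66 ± 0.551) and Fbln2 (−1.03 ± 0.189), with a more negative one. These counts rest on the libraries used: without replicate A they were 1, 2 and 3, and without replicate C 1, 2 and 1. In labelled reads no gene passed in any of the 3 (0 of 9 each; backgrounds 0.0466%, 0.0777% and 0.233%; 3, 5 and 3 genes at an unadjusted p under 0.05; no other tool was run).

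Labelled reads of the genes did not pass the test between ML-792 and DMSO at days 1 and 7. At day 1 it was 0 of 9 genes (background 0.979%; 5 at an unadjusted p under 0.05; 2 by DESeq2), and at day 7 also 0 of 9 (0.948%; 5 at an unadjusted p under 0.05; none by DESeq2). The median of all genes was −0.30 and −0.36 at these days. Fn1 at day 1 had labelled counts of 148, 160 and 141 with ML-792 and 69.3, 81.8 and 74.1 in DMSO. Although the ranges do not overlap, 0.99 ± 0.313 (log2, SE) had an adjusted p of 0.144 (edgeR), and it passed by DESeq2 (adjusted p = 0.0127) and on the scale of the labelled reads (1.20). Without replicate B, 1 of the 9 genes passed at day 1. At day 7 Fn1 had 8.60, 12.7 and 5.43 against 14.6, 11.4 and 17.1, from 4 to 15 reads in a library.

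Postn had 226, 167 and 143 labelled counts with ML-792 against 174, 78.2 and 100 in DMSO at day 1, and 31.9, 30.5 and 86.9 against 27.0, 10.4 and 28.4 at day 7 (1.18 ± 0.414, adjusted p = 0.222, edgeR). The ML-792 libraries of day 7 lay above those of DMSO, with replicate C far above the other 2. Sparc at day 7 had 673, 679 and 638 against 432, 317 and 449 (0.73 ± 0.265, adjusted p = 0.246, edgeR). Thbs1 had 92.2, 66.8 and 95.7 against 53.4, 48.5 and 73.2 at day 1 and 43.0, 43.1 and 99.1 against 34.8, 34.3 and 46.6 at day 7, with overlap at both. Thbs2 had 5, 8 and 7 labelled reads against 0, 5 and 0 at day 1 and 5, 4 and 4 against 2, 0 and 1 at day 7, where 13 reads against 3 gave a ratio of 5.06 (95% Poisson interval 1.39 to 27.7) and the fit over all genes an adjusted p of 0.327. The labelled share passed no test between treatments either, with 0 of 9 genes at day −2 (0%), day 1 (0.0466%) and day 7 (0.14%), and 0, 2 and 0 genes at an unadjusted p under 0.05. No other tool was run for it.

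At day 3, the contrast that named Fn1 and Postn, the values are these, with no test. Fn1 had 58.7, 69.7 and 57.1 labelled counts with ML-792 and 8.82, 22.3 and 8.51 in DMSO, a log2 difference of 2.22. Postn had 148, 69.7 and 170 with ML-792 and 27.6, 18.8 and 15.8 in DMSO, a difference of 2.63. The median of all genes was −0.09 in labelled reads, and a higher value in both genes is what they were chosen for. Total counts were 5016, 6773 and 4950 against 1872, 3035 and 1951 for Fn1 (1.29) and 10600, 12468 and 12288 against 2282, 2605 and 1707 for Postn (2.42). Postn with ML-792 at day 3 lay within its 9896 to 13540 of day 1. Among the other genes the total counts with ML-792 differed from DMSO by 2.02 in Thbs2 (545, 533 and 459 against 115, 128 and 136), 1.16 in Sparc, −1.69 in Tnc (62.0, 34.2 and 45.9 against 180, 140 and 141) and −1.67 in Fbn1 (85.9, 77.4 and 47.2 against 190, 245 and 237). The pre-adipocyte markers summed to 9842 to 11110 with ML-792 and to 4961 to 6404 in DMSO at that day, and their part was not tested.

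Most genes of the 4 groups that work with these proteins fell in DMSO as well. Among 16 tested of 19 matricellular relatives (CCN proteins, further thrombospondins, tenascins and SPARC-like proteins), 10 were lower and 1 higher at day 7 in total reads, and 5 did not pass. Their median was −3.81 (log2), or −3.20 with Nov, which had no read at day 7, at its bound of at least 7.11-fold lower. Ctgf, a CCN protein induced by TGF-β, went from 2936 ± 632 to 16.2 ± 14.9 normalized counts (SD, n = 3). Smoc1, a calcium-binding relative of SPARC, was higher by 4.67 ± 0.324 (adjusted p = 1.45e-08, edgeR), from 12.6 ± 4.57 to 325 ± 12.1. Tgfbi, a periostin relative, had the smallest decrease among the 10 lower ones, −2.53 ± 0.302. Over all genes 19.1% were lower and 19.3% higher.

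Of 17 tested of 20 further elastic fibre and microfibril genes, 14 were lower, 1 higher and 2 did not pass, with a median of −2.46. Ltbp3, which binds latent TGF-β, was the higher one (0.79 ± 0.212, adjusted p = 0.00674, edgeR). Efemp2, also called fibulin 4, was lower by −1.58 ± 0.171, and Fbln7 and Mfap2 went from 129 ± 31.5 to 1.10 ± 0.052 and from 179 ± 69.0 to 2.20 ± 0.105 normalized counts. Of 11 tested of 15 receptors, 7 were lower and 2 higher, with a median of −1.28. The higher ones were Cd36, a thrombospondin receptor and fatty acid transporter, from 29 ± 4.46 to 7204 ± 609 (7.95 ± 0.308, adjusted p = 4.85e-11, edgeR), and the syndecan Sdc4 (1.36 ± 0.205). The integrin subunits Itgb3 (−3.51 ± 0.327) and Itga8 (12.1 ± 2.93 to 0.375 ± 0.649) were lowest. Of 19 proteases, inhibitors and crosslinkers 15 were lower and 3 higher, with a median of −3.50. Tgm2, a transglutaminase that crosslinks fibronectin, went from 5.01 ± 3.14 to 360 ± 93.9 and Timp4 from 10.4 ± 3.29 to 136 ± 26.0. Timp3, an inhibitor of metalloproteinases, was lower by −8.05 ± 0.258 (adjusted p = 1.35e-11, edgeR), and the gelatinase Mmp9 went from 355 ± 163 to 1.45 ± 1.26.

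With ML-792 the same 4 groups held calls in both directions against DMSO. In total reads at day 1, where 3.82% of all genes were higher and 4.05% lower, it was 5 higher and 1 lower of 16 matricellular relatives, 1 and 2 of 17 elastic fibre genes, 1 and 1 of 11 receptors, and 3 and 1 of 19 proteases, inhibitors and crosslinkers. At day 7, where 6.32% and 5.43% of all genes were called, it was 2 and 1, 1 and 1, 1 and 3, and 6 and 1. The median differences at day 1 were 0.53, 0.07, −0.14 and −0.08 in the same order, and at day 7 they were 0.45, 0.36, −0.25 and 0.59.

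**Figure D5:**
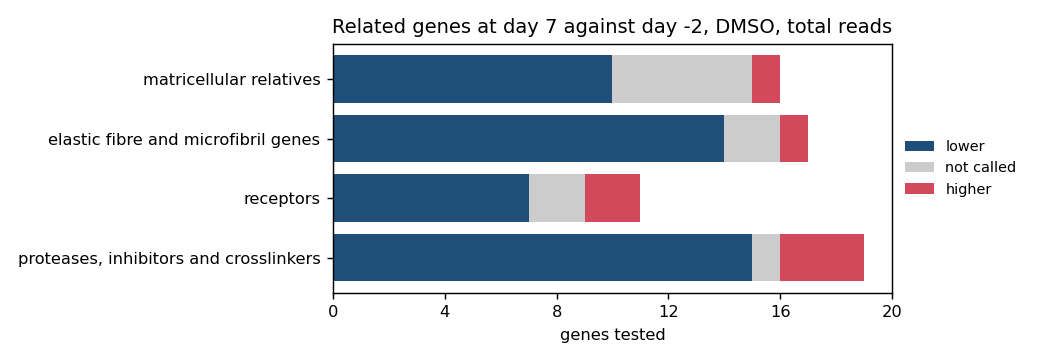
Number of tested genes of each group of related genes that were lower, higher or not called at day 7 against day −2 in DMSO (total reads, adjusted p under 0.01). Lower genes make up 10 of 16 matricellular relatives, 14 of 17 elastic fibre genes, 7 of 11 receptors and 15 of 19 proteases, inhibitors and crosslinkers.

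Over the 24 libraries the 10 genes varied together to a differing degree. The 45 pairs had Pearson correlations of log2 total counts from 0.41 to 0.96, with a median of 0.74. In labelled reads the genes most like Fn1 were Cxcl5 (0.97), Bdnf (0.95) and Marcks (0.94), those most like Thbs1 were Ankrd1 (0.97), Ctgf (0.97) and Anxa1 (0.96), and those most like Postn were Prkg2 (0.88), S100a4 (0.87) and Epb41l3 (0.87). The points are 24 libraries of 8 conditions that share their days, treatments and depth, so these correlations are descriptions.

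Promoter windows, 250 bases before to 50 after a start, were at hand in the RefSeq table of GRCm38.p6 for 7 of the genes: Postn, Thbs2, Tnc, Sparc, Fbln5, Fbln2 and Fbn1. On either strand TATAAA occurred in windows of Postn, Thbs2 and Tnc (13.6% of all 32851 windows hold it), CCAAT in Postn, Thbs2 and Fbln5 (37.4%), and GGGCGG in Tnc, Fbln5, Fbln2 and Fbn1 (35.7%). A gene was counted if any of its windows matched, whereas the shares count single windows. Postn, Fbln5 and Tnc had more than a single window. TGACGTCA (1.79%), TGANTCA (7.81%), GGAATG (14.7%) and the CArG box (1.63%) were not found in these windows, which says nothing of the factors that bind them elsewhere.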

How the data were processed

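SLAMseq reads 4-thiouridine as T to C conversions in 3′ end (QuantSeq) libraries. The authors demultiplexed the reads with bcl2fastq 2.17.1.14, per the submitters' processing notes, and ran SlamDunk against mm10 with RefSeq 3′UTRs. The deposited tables hold raw counts per 3′UTR entry, of all reads and of reads with at least 1 T to C conversion. Each of the tables has 6 library columns that match no sample here, which were left out.

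Tests used edgeR 4.0.16 (quasi-likelihood, Benjamini-Hochberg) in R 4.3.3 with limma 3.58.1, over all entries past filterByExpr (minimum count 10, minimum total 15): 26563 entries in total reads and 10589 in labelled reads. Summaries use 1 entry per gene. TMM factors and library sizes of the total reads scaled both tables, and log2 values for correlations took a prior count of 2. Time courses were fitted within each treatment (adjusted p under 0.01), and ML-792 against DMSO over all 24 libraries (under 0.1). The labelled share was tested as labelled against unlabelled reads. The SE of a log2 fold change was derived from the test, as its absolute value divided by the square root of the F statistic. Intervals have 95% confidence and bounds use 3 reads per library. Alternatives were DESeq2 1.42.0, RLE factors, a filter of 10 reads, 1 entry per gene, another scaling of labelled reads, another set of libraries in the fit, a replicate block and leaving out each replicate. The longest entry of each gene was also the one used, so that alternative gave no other value. On simulated counts for DMSO day 7 against day −2, 87% of entries changed by a log2 fold of 2 were called in total reads (26563 entries) and 58% in labelled reads (10589 entries). The simulation assumed a fixed dispersion for all entries of a table and no effect of the replicate letter, so these shares need not hold for the real libraries.

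The genes and lists were chosen with earlier results of these data known. In each list of related genes the text names the 2 highest and the 2 lowest log2 fold changes among those called at day 7 against day −2 in DMSO, in total reads, and among those called with ML-792 at day 7 in labelled reads. The result of the latter is not reported here. Of genes with 3 reads or fewer in a group, levels are given in place of folds.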

Additional observations from a re-analysis of the deposited data

Results flagged for a closer look

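The difference between ML-792 and DMSO in total reads itself differed between days in 15 cases, by the interaction of treatment and day (edgeR quasi-likelihood test over all genes, 3 replicates per condition, adjusted p under 0.1). From day −2 to day 1 it changed by 3.54 ± 0.504 (log2, SE) in Eln (adjusted p = 0.000226), 1.00 ± 0.200 in Thbs2 (0.00721), 0.66 ± 0.188 in Fbln2 (0.0992), −1.36 ± 0.293 in Fbn1 (0.0142) and −1.16 ± 0.314 in Tnc (0.0763). Without replicate A and without replicate C, Eln alone of these kept its call.

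From day −2 to day 7 it changed by 1.70 ± 0.203 in Thbs2 (adjusted p = 1.77e-05, edgeR), 1.68 ± 0.254 in Postn (0.000345) and 1.23 ± 0.282 in Thbs1 (0.0177). Thbs1 lost its call without replicate A or C.

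From day 1 to day 7 it changed by 1.99 ± 0.390 in Tnc (adjusted p = 0.00287, edgeR), 1.44 ± 0.254 in Postn (0.00104), 1.26 ± 0.310 in Fbn1 (0.0174), 0.95 ± 0.287 in Fbln5 (0.0594), 0.69 ± 0.204 in Thbs2 (0.0517), −1.03 ± 0.189 in Fbln2 (0.00167) and −2.66 ± 0.551 in Eln (0.0044). Without replicate A the calls of Fbln5, Eln, Fbn1 and Thbs2 were lost, without B that of Thbs2, and without C all but that of Postn.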

How the results depend on the processing

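Of 1043 values of the 122 calls of single genes under the alternatives, 970 kept their direction and their side of the threshold, 71 kept their direction only and 2 turned. The 122 calls include some of day 3, with Fn1 and Postn among them, although the choice of both used that day. These counts therefore rest in part on values that the choice used. Where a result changed, the cause was not tested beyond what the alternative itself changes. Leaving out each replicate gave 2 to 6 genes called at day 1 in DMSO in total reads and 3 to 5 in labelled reads. With ML-792 against DMSO it gave 4 to 8 in total reads at day 1, 3 to 4 at day 7 and 0 to 1 in labelled reads at day 1. For the interaction in total reads it gave 1 to 7 genes between days −2 and 1 and 1 to 7 between days 1 and 7. For the labelled share in DMSO it gave 1 to 4 genes at day 1 and 0 to 2 at day 7. Postn in total reads at day 1, −0.07 between ML-792 and DMSO, ranged from −0.13 to 0.029 with a replicate left out, and turned without replicate C.

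The count of 2 genes in total reads at day 1 in DMSO was 6 by DESeq2 and 5 with all 24 libraries in 1 fit. Over all genes, 2263 were called there, 543 without replicate A and 862 without C. In labelled reads of day 1 DESeq2 called 2 genes between the treatments. Scaled by labelled reads, it was 1 at day 1 and 2 at day 7, and 2 at day 1 in the ML-792 time course. Sparc in labelled reads turned to 0.21 at day 1 in DMSO and to 0.12 at day 7 with ML-792. With labelled and unlabelled reads scaled by their own factors, the share in DMSO was called in 1 gene at day 1 and 1 at day 7. At day 3 it was called in none of the genes other than Fn1 and Postn. It turned to 0.48 and 0.79 in Postn at days 1 and 3, to 0.32, 0.62 and 0.27 in Sparc at days 1, 3 and 7, and to 0.20 in Thbs1 at day 7.

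The replicate letters were not taken as pairs. Deviations of libraries with the same letter correlated by over 0.1 in 68 of 84 pairs in total reads and in 22 of 84 in labelled reads, although 22 of 24 libraries were closest to their own letter, a hint from the data and not from the design. With the replicate block 8 genes were called at day 1 in DMSO in total reads and 5 in labelled reads, 1 and 2 between the treatments in labelled reads at days 1 and 7, 5 higher and 1 lower (Fbln2) between the treatments in total reads at day 7, 8 for the interaction in total reads between days −2 and 1, and 1 for that in labelled reads between days 1 and 7. Over all genes the block called 3499 at day 1 in DMSO. Depth limits the labelled reads of Eln, Fbln5, Tnc, Fbn1 and Thbs2, which had 7 reads or fewer in every library of days 3 and 7.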
